A study of Rattus norvegicus with 8 samples.

Results

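Respiratory complex I, the NADH:ubiquinone oxidoreductase, is the first enzyme of the mitochondrial respiratory chain. It takes electrons from NADH at the tip of an arm that stands in the matrix (the N module), passes them to ubiquinone at the foot of that arm (the Q module), and pumps protons through an arm that lies in the inner membrane (its proximal and distal parts). A few conserved core subunits carry the flavin, the iron-sulfur clusters and the quinone site, many small accessory subunits surround them, and a separate set of assembly factors builds the complex without staying in it. The pump subunits are encoded by mitochondrial DNA, whereas all genes described here are nuclear, so their mRNAs can be carried into axons and translated there.

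The genes were chosen by name. Every symbol of the somatic comparison table that began with Ndufa, Ndufb, Ndufc, Ndufs or Ndufv was taken, which gave 43 of 17320 genes, and the 7 that began with Ndufaf were kept apart as assembly factors. Of the other 36, Ndufa4 and Ndufa4l2 carry the family name although Ndufa4 is now counted with cytochrome c oxidase, and Ndufa10l1 was placed in no module. Transcripts were matched for 41 of the 43 genes, of which 31 are subunits with a place in the complex (9 in the N module, 6 in the Q module, 5 in the proximal and 11 in the distal membrane arm). For Ndufa8 and Ndufs6 only the authors' deposited comparisons were used. Ndufa13, a subunit of the membrane arm, was not among the symbols of that table and is therefore not counted.

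The cells were rat dorsal root ganglion neurons taken at embryonic day 15 and grown for 7 days in microfluidic chambers, in which axons pass through grooves into a compartment of their own. On the day of plating all cultures received a lentivirus carrying a short hairpin RNA, either shPum2, directed against the RNA-binding protein Pumilio 2, or shControl. Total RNA was sequenced from axons of shPum2 cultures, axons of shControl cultures, the somatic side of shPum2 cultures and the somatic side of shControl cultures, with 2 libraries each. The somatic side held cell bodies together with axons. Somatic RNA went through a standard library kit and axonal RNA through a kit for ultra-low input, and an effect of compartment therefore cannot be told apart from one of the kit. The labels do not say whether the 2 libraries of a group came from separate cultures, so all p-values measure only the spread between these libraries, which may be technical.

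The axonal libraries held 11641947 to 16131611 estimated counts over 9542 to 10730 genes, and the somatic ones 16725876 to 25821766 counts over 14038 to 14263 genes. Pum2 itself had 38.2 and 36.5 CPM (counts scaled to the library total) in shPum2 soma, against 164 and 160 CPM in shControl soma (log2 change -2.13, SE 0.07, edgeR adjusted p = 0.0247). In axons it had 1.46 and 7.07 CPM under shPum2, against 3.25 and 0.443 CPM under shControl, so axonal values could not check the hairpin label. The 13 neuron markers measured were above 0 in every library, and their summed level was 7191 to 12412 TPM (a share of the library corrected for transcript length) in axons, against 30400 to 35478 TPM in soma. In CPM the same sums overlapped, with 18818 to 34547 in axons, against 32541 to 38176 in soma. The 12 macrophage and leukocyte markers summed to 3474 and 186 TPM in shPum2 axons and to 1979 and 2387 TPM in shControl axons, against 118 to 497 TPM in soma.

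Of the 43 genes, 38 had a promoter window in the RefSeq table of the GRCr8 assembly, running from 250 bases before the transcript start to 50 after it. The windows are shown because genes of the respiratory chain share binding motifs for a few general factors. Whether a motif went with the axonal change was not tested. On both strands, GCGCATGC (the motif of the factor NRF1) was found in 4 members or 10.5%, against 2.47% of all 33469 windows. CCGGAAG (ETS family, which includes GABPA) was found in 8 members or 21.1%, against 8.75%. AAGATGG (YY1) was found in 9 members or 23.7%, against 7.01%, and 8 of these 9 matches began within 30 bases after the start, all 9 on the sense strand. Position and strand were not counted over all windows, so they cannot be called a trait of the members. TATAAA, the letters of the TATA box, was found anywhere in the window in 3 members or 7.89%, against 14.2%. These matches began at -209, -110 and -95 from the start, the last on the antisense strand. At least 1 of the first 3 motifs was present in 17 members, 44.7%, against 16.8% of all windows. The motifs were not particular to complex I. Of 34 windows of subunits of respiratory complexes II to V, 61.8% held at least 1 of these 3. There GCGCATGC was found in 17.6%, CCGGAAG in 41.2% and AAGATGG in 29.4%. GCGCATGC overlaps its own reverse complement and was counted once per window, and CCGGAAG and AAGATGG can share the bases AAG but did not overlap in any member. A match describes the letters only.

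Below, 4 windows are given from 5′ to 3′ on the gene's strand, in lower case with matches to the first 3 motifs in capitals: the member with the largest axonal excess, a member that held all 3 motifs, the assembly factor that stood apart from the others, and the subunit that was lowest in axons. Ndufa1 (chrX:121293506-121293805, minus strand) held CCGGAAG at -171 and 6, Ndufa6 (chr7:115750268-115750567, minus strand) held CCGGAAG at -190, GCGCATGC at -104 and AAGATGG at 15, Ndufaf8 (chr10:105879658-105879957, plus strand) held CCGGAAG at -16 and AAGATGG at 2, and Ndufs1 (chr9:72073556-72073855, minus strand) held CCGGAAG at -199. Positions are those of the first base of the match, counted from the transcript start as 0.
Ndufa1: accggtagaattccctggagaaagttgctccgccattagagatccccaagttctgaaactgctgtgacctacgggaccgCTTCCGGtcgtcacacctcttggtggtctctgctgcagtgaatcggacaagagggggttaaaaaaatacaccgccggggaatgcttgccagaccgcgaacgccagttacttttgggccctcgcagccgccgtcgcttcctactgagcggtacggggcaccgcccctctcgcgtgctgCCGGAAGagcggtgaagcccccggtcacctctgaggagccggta
Ndufa6: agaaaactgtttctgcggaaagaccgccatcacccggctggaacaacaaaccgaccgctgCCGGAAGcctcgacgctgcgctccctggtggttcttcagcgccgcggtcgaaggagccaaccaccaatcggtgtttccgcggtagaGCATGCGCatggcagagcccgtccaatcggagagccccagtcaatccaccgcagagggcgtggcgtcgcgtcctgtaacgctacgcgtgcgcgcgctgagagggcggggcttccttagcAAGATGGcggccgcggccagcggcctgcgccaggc
Ndufaf8: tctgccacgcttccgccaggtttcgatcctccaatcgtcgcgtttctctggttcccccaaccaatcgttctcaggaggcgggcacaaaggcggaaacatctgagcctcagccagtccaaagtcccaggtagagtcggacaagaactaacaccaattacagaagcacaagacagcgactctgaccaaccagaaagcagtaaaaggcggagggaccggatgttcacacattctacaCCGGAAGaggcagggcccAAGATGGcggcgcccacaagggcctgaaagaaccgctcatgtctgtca
Ndufs1: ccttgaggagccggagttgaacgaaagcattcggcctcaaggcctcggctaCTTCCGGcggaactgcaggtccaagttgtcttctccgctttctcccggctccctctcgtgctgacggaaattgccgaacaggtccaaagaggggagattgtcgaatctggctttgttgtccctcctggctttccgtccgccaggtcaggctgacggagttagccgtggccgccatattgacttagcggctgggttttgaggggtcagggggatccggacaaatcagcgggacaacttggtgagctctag
Ndufa1 and Ndufs1, which lay at opposite ends of the axonal order, both held an ETS motif.

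Complex I mRNAs were a larger part of the axonal than of the somatic libraries. The 41 genes summed to 29664 and 35427 TPM in shPum2 axons and to 30819 and 28843 TPM in shControl axons. In soma they summed to 8799 and 9109 TPM under shPum2 and to 8916 and 9144 TPM under shControl. The axonal sums did not overlap the somatic ones, and axonal means were 3.63 times the somatic mean in shPum2 cultures and 3.30 times in shControl cultures. In the edgeR fit of all 8 libraries, 29 of 41 genes were higher in axons and 0 lower in shPum2 cultures, where 8.45% of the 12337 genes tested were higher and 16.2% lower. In shControl cultures the counts were again 29 and 0, with 9.41% of all genes higher and 18.5% lower. The median log2 change was 3.88 in shPum2 and 3.77 in shControl cultures, against -0.64 and -0.75 over all genes tested.

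These counts depend on how the libraries are scaled. The 10 most abundant genes took 24.3% to 30.4% of axonal counts and 5.92% to 6.60% of somatic counts, and their part in this was not tested. Under scaling by total counts, 26 members were higher and 0 lower in each hairpin, with 538 genes of all kinds higher and 3015 lower in shPum2 cultures (1042 and 2004 in the fit above) and 609 and 3606 in shControl cultures (1161 and 2284). On log2(TPM + 1) with limma, 23 members were higher and 7 lower in shPum2 cultures and 22 and 7 in shControl cultures, with 410 and 466 genes of all kinds higher and 7837 and 7788 lower, and the median of all genes lay at -2.36 and -2.40. The members' median exceeded that of all genes by 4.52 in the edgeR fit, by 4.26 with total counts and by 3.49 on TPM in shPum2 cultures, and by 4.52, 4.52 and 3.39 in shControl cultures, so on TPM the members moved further down than the median gene. The 5 scalings tried gave 23 members called higher in all of them in shPum2 cultures and 22 in shControl cultures. When either somatic library of the hairpin under comparison was left out, no gene at all passed in that comparison: the smallest adjusted p over all genes was then 0.0821 to 0.100, with 28 or 29 members at an unadjusted p below 0.05 and a members' median log2 of 3.68 to 3.97. With all 8 libraries, 33 members had such a p in shPum2 and 35 in shControl cultures, against 37% and 41.9% of all genes. Leaving out any one of the other libraries gave 23 to 35 members called higher.

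By TPM alone, without a test, 24 members lay higher in all 4 axonal than in all 4 somatic libraries and 7 lay lower, while the remaining 10 overlapped. Among all genes tested, 4.17% lay higher and 75.3% lower in this way.

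**Figure D1:**
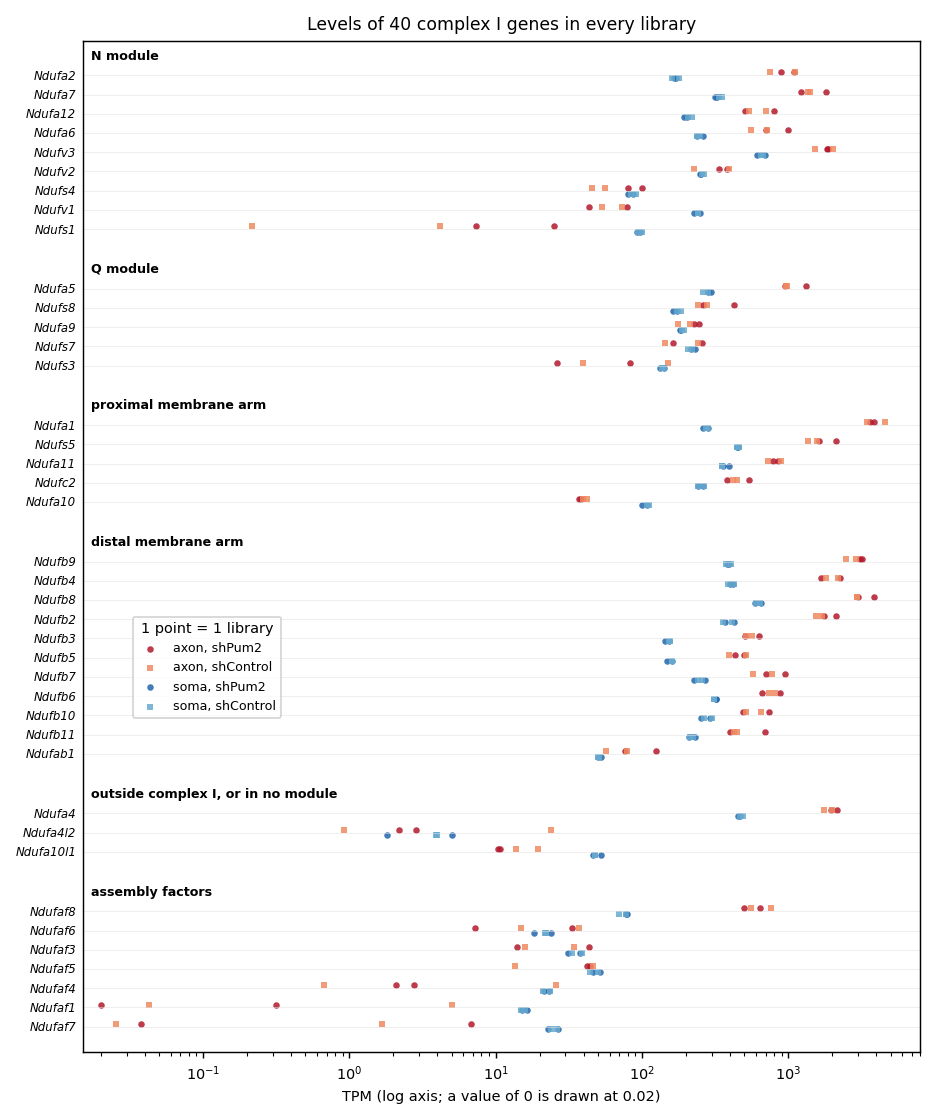
Level of 40 of the 41 complex I genes in TPM (log axis), 1 point per library, with axonal libraries in red and orange drawn above the somatic ones in blue; genes are grouped by their place in the complex and ordered within each group by their change in shControl cultures. The 4 somatic libraries lie close together for nearly every gene, most axonal points of the small accessory subunits lie to their right, and Ndufs1, Ndufv1, Ndufa10 and several assembly factors lie to their left.

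The macrophage and leukocyte markers moved with the compartment: 4 of the 12 rose in shPum2 axons and 6 of the 12 in shControl axons, while Cd74 was at 0 in all 4 axonal libraries and Itgam in 3 of them. The complex I sum was at its highest, 35427 TPM, in replicate 2 of shPum2 axons, where the macrophage sum was at its lowest among axons, 186 TPM. In replicate 1 of shPum2 axons the complex I sum was 29664 TPM and the macrophage sum 3474 TPM. In shControl axons these sums were 30819 and 1979 TPM in replicate 1, and 28843 and 2387 TPM in replicate 2. Fibroblast markers summed to 167 to 392 TPM in axons, against 1438 to 5302 TPM in soma. Of these 11 markers 0 were higher in either hairpin, and 0 were lower in shPum2 and 1 in shControl axons. Of the 13 neuron markers, 2 were called higher and 0 lower in shPum2 axons, and 1 higher and 3 lower in shControl axons. Schwann and satellite glia markers summed to 25.8 to 81.0 TPM in axons, against 49.4 to 101 TPM in soma, with 1 of 10 higher and 1 of 10 lower in each hairpin. Without correction for length the order of these sums was the other way round, 70.2 to 195 CPM in axons, against 42.2 to 103 CPM in soma, and the groups overlapped on both scales. Endothelial and mural cell markers summed to 3.55 to 5.16 TPM in axons, against 25.3 to 101 TPM in soma. Of the 7 tested, 0 were higher in either hairpin, and 3 were lower in shPum2 and 2 in shControl axons. Over all genes tested, 16.2% and 18.5% were lower. The part of these cells in the compartment result was not tested. In bulk RNA, fewer cells of a type and less RNA per cell cannot be told apart.

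The 7 nuclear core subunits, which hold the redox centres, showed smaller changes than the 24 accessory subunits. Of the core subunits 4 of 7 were called higher in axons in each hairpin, with a median log2 change of 1.94 in shPum2 and 2.16 in shControl cultures. Of the accessory subunits 23 of 24 were called higher in each, with medians of 4.56 and 4.24, the exception being Ndufa10 in both. In TPM the core subunits summed to 1095 and 1274 in shPum2 axons and 1022 and 1135 in shControl axons, against 1349 and 1377 in shPum2 soma and 1388 and 1393 in shControl soma. Thus the axonal core sum was 0.869 and 0.776 times the somatic one, whereas the accessory sum was 4.19 and 3.802 times the somatic one. The ratio of the 2 classes is free of the scaling of the library, and the difference between the classes was not tested.

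In the N module, 7 of 9 genes were called higher in axons in each hairpin. Ndufs1, the largest core subunit and carrier of iron-sulfur clusters, had 25.1 and 7.34 TPM in shPum2 axons and 4.15 and 0.217 TPM in shControl axons, against 91.8 and 97.4 TPM in shPum2 soma and 99.4 and 94.1 TPM in shControl soma. All 4 axonal libraries lay lower than all somatic ones, and the axonal values spanned 2 orders of magnitude, resting on 858, 412, 161 and 9 counts. Its log2 change was -0.04 (SE 1.18, edgeR adjusted p = 0.986) in shPum2 and -2.63 (SE 1.25, adjusted p = 0.162) in shControl cultures. Ndufv1, the core subunit that binds NADH and the flavin, had 78.6 and 43.8 TPM in shPum2 axons and 53.5 and 73.2 TPM in shControl axons, against 228 and 248 TPM in shPum2 soma and 241 and 241 TPM in shControl soma. Its axonal TPM were 0.257 and 0.262 times the somatic ones with no overlap, while the edgeR log2 changes were 0.67 and 0.81 (adjusted p = 0.255 and 0.151). Ndufv2, the third core subunit of the tip, which holds a further iron-sulfur cluster, had 334 and 382 TPM in shPum2 axons and 395 and 228 TPM in shControl axons, against 254 and 250 TPM in shPum2 soma and 267 and 258 TPM in shControl soma. It was called higher in both hairpins (log2 3.30 and 3.04), although 1 shControl axonal library lay below the somatic range in TPM.

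Of the accessory genes of the same module, all but Ndufs4 had higher TPM in every axonal than in every somatic library. Ndufa2, a small accessory subunit with a thioredoxin-like fold, had 891 and 1089 TPM in shPum2 axons and 1110 and 750 TPM in shControl axons, against 171 and 167 TPM in shPum2 soma and 178 and 161 TPM in shControl soma (log2 5.35 and 5.25). Ndufa7, another accessory subunit, had 1218 and 1814 TPM in shPum2 axons and 1417 and 1358 TPM in shControl axons, against 326 and 313 TPM in shPum2 soma and 338 and 351 TPM in shControl soma. For both, every axonal library lay higher than every somatic one. Ndufa12, Ndufa6 and Ndufv3 were called higher too, with log2 changes of 3.77 to 4.60. Ndufs4, an accessory subunit whose loss causes Leigh syndrome in humans, had 80.6 and 100 TPM in shPum2 axons and 56.0 and 45.2 TPM in shControl axons, against 80.8 and 87.2 TPM in shPum2 soma and 84.2 and 90.9 TPM in shControl soma. Its edgeR call was higher in both hairpins (log2 2.92 and 1.98). With total counts the call was lost in both (log2 1.30 and 0.39, edgeR adjusted p = 0.0686 and 0.507). On log2(TPM + 1) its change was 0.10 in shPum2 and -0.79 in shControl cultures, and it did not pass (limma adjusted p = 0.769 and 0.0503).

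In the Q module, 5 of 6 genes were called higher in each hairpin. Ndufs3, a core subunit of the matrix arm, had 83.4 and 26.2 TPM in shPum2 axons and 39.4 and 152 TPM in shControl axons, against 134 and 141 TPM in shPum2 soma and 138 and 141 TPM in shControl soma. It did not pass (log2 1.18 and 2.16, edgeR adjusted p = 0.263 and 0.0592), and its axonal libraries differed among themselves more than those of any other gene of this module.

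Ndufs7, the core subunit with the last iron-sulfur cluster before the quinone, had 162 and 255.8 TPM in shPum2 axons and 143 and 241 TPM in shControl axons, against 229 and 216 TPM in shPum2 soma and 220 and 205 TPM in shControl soma. In both hairpins replicate 2 lay higher than soma and replicate 1 lower, and the edgeR changes of 2.77 and 2.60 were -0.13 and -0.19 on log2(TPM + 1). Ndufs8, a core subunit with a pair of iron-sulfur clusters, had 262 and 423 TPM in shPum2 axons and 241 and 280 TPM in shControl axons, against 164 and 174 TPM in shPum2 soma and 173 and 185 TPM in shControl soma, and was the only core subunit whose axonal libraries all lay higher. The accessory subunit Ndufa5 had 955 and 1329 TPM in shPum2 axons and 976 and 971 TPM in shControl axons, against 281 and 295 TPM in shPum2 soma and 263 and 281 TPM in shControl soma (log2 4.81 and 4.61). Its log2 change exceeded that of every core subunit in both hairpins. Ndufa9, which sits at the junction of the arms, was called higher (log2 3.14 and 2.78), with axonal TPM of 176 to 244 overlapping somatic TPM of 181 to 194.

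In the proximal membrane arm, 4 of 5 genes were called higher in each hairpin. Ndufa1, a small single-pass membrane subunit encoded on the X chromosome, had 3633 and 3878 TPM in shPum2 axons and 4583 and 3450 TPM in shControl axons, against 283 and 261 TPM in shPum2 soma and 282 and 272 TPM in shControl soma. It was the most abundant member in axons by mean TPM in both hairpins, while it ranked 13 of 41 in shPum2 soma and 12 of 41 in shControl soma. Its TPM were 13.8 and 14.5 times higher in axons, and its edgeR log2 change of 6.55 (SE 0.53, adjusted p = 0.00485) in shPum2 and 6.65 (SE 0.53, adjusted p = 0.00418) in shControl cultures exceeded that of the other 40 genes. Ndufa10, an accessory subunit of the nucleoside kinase fold and the only accessory subunit that did not pass, had 38.3 and 37.2 TPM in shPum2 axons and 42.3 and 39.4 TPM in shControl axons, against 99.4 and 108 TPM in shPum2 soma and 108 and 112 TPM in shControl soma. All its axonal values lay lower, at 0.364 and 0.371 times the somatic means, and its edgeR change of 1.30 and 1.33 (adjusted p = 0.0924 and 0.0780) was -1.43 and -1.41 on log2(TPM + 1). Ndufa10l1, whose symbol names it as similar to Ndufa10, had 10.4 and 10.6 TPM in shPum2 axons and 13.8 and 19.6 TPM in shControl axons, against 46.5 and 52.3 TPM in shPum2 soma and 47.4 and 47.9 TPM in shControl soma. Reads shared by this pair would be divided by estimation, and whether they were was not tested. Ndufs5, Ndufa11 and Ndufc2 were called higher, with log2 changes of 3.53 to 4.86.

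All 11 genes of the distal membrane arm were called higher in axons in each hairpin, with median log2 changes of 4.55 and 4.24 and a range of 3.21 to 5.76. This arm surrounds mitochondrially encoded proton pumps. Ndufb9, an accessory subunit at the matrix face of the arm, had 3183 and 3091 TPM in shPum2 axons and 2887 and 2465 TPM in shControl axons, against 383 and 395 TPM in shPum2 soma and 378 and 409 TPM in shControl soma (log2 5.76 and 5.54). Ndufb8, a single-pass membrane subunit, had 2988 and 3872 TPM in shPum2 axons and 2944 and 2970 TPM in shControl axons, against 594 and 649 TPM in shPum2 soma and 601 and 640 TPM in shControl soma. These genes followed Ndufa1 as the most abundant members in axons. Ndufb4 had 1674 and 2240 TPM in shPum2 axons and 1823 and 2187 TPM in shControl axons, against 403 and 417 TPM in shPum2 soma and 390 and 426 TPM in shControl soma. Ndufb2 had 1748 and 2106 TPM in shPum2 axons and 1687 and 1547 TPM in shControl axons, against 367 and 427 TPM in shPum2 soma and 360 and 414 TPM in shControl soma. The other Ndufb genes had log2 changes of 3.75 to 4.74. Ndufab1, the mitochondrial acyl carrier protein, which also serves fatty acid synthesis, had the smallest change of the arm in both hairpins (3.85 and 3.21), with 77.1 and 126 TPM in shPum2 axons and 79.1 and 56.9 TPM in shControl axons, against 50.2 and 52.2 TPM in shPum2 soma and 50.1 and 50.7 TPM in shControl soma.

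**Figure D2:**
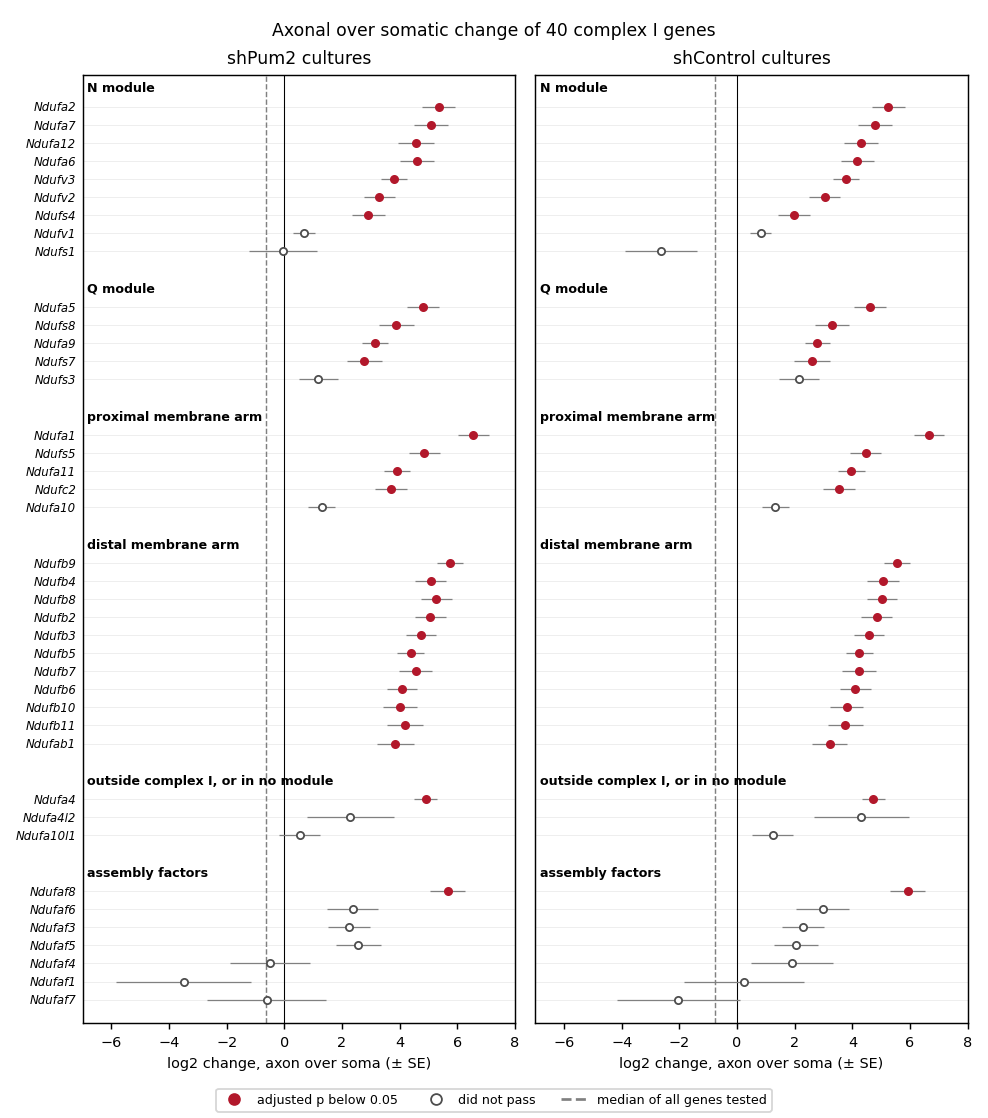
Log2 change of axonal over somatic counts with its standard error (edgeR, 8 libraries) for 40 genes in shPum2 cultures, left, and shControl cultures, right; filled points passed at an adjusted p below 0.05, and the dashed line is the median of all genes tested. All 11 genes of the distal membrane arm are filled in both panels, and of the assembly factors only Ndufaf8 is.

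Ndufa4, a subunit of cytochrome c oxidase in spite of its name, had 2141 and 1974 TPM in shPum2 axons and 1977 and 1757 TPM in shControl axons, against 453 and 468 TPM in shPum2 soma and 469 and 494 TPM in shControl soma (log2 4.90 and 4.72). Its relative Ndufa4l2, known as a target of hypoxia signalling, had 2.86 and 2.20 TPM in shPum2 axons and 0.925 and 23.7 TPM in shControl axons, against 5.03 and 1.80 TPM in shPum2 soma and 3.96 and 3.92 TPM in shControl soma. It did not pass (edgeR adjusted p = 0.333 and 0.0949), and its shControl change of 4.31 rested on replicate 2, which held 328 counts against 12 in replicate 1.

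Among the 7 Ndufaf assembly factors only Ndufaf8 was called higher in axons. Ndufaf8, which works together with Ndufaf5, had 498 and 644 TPM in shPum2 axons and 555 and 758 TPM in shControl axons, against 78.7 and 78.1 TPM in shPum2 soma and 69.2 and 77.6 TPM in shControl soma (log2 5.67 and 5.92, edgeR adjusted p = 0.00551 and 0.00473). It made up most of the summed axonal level of the assembly factors, 628 and 709 TPM in shPum2 axons and 625 and 882 TPM in shControl axons, against 234 and 258 TPM in shPum2 soma and 235 and 248 TPM in shControl soma. Ndufaf5, which hydroxylates an arginine of the core subunit Ndufs7, had 44.5 and 41.9 TPM in shPum2 axons and 13.6 and 46.1 TPM in shControl axons, against 46.0 and 51.6 TPM in shPum2 soma and 44.4 and 49.9 TPM in shControl soma. Its edgeR log2 changes were 2.57 and 2.04, and it did not pass (adjusted p = 0.0540 and 0.0884). In TPM the partners of this pair lay far apart in axons. Ndufaf7, an arginine methyltransferase, had 6.74 and 0.0374 TPM in shPum2 axons and 1.68 and 0.0254 TPM in shControl axons, against 22.9 and 26.6 TPM in shPum2 soma and 26.4 and 23.9 TPM in shControl soma.

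Ndufaf1, which builds the membrane arm, had 0 and 0.317 TPM in shPum2 axons and 5.03 and 0.0429 TPM in shControl axons, against 15.2 and 16.4 TPM in shPum2 soma and 15.8 and 14.8 TPM in shControl soma. The 0 in replicate 1 of shPum2 axons allows a level of up to 0.258 CPM (3 counts, counting error only). Ndufaf1 and Ndufaf7 lay lower in all axonal libraries but did not pass in edgeR (log2 -3.49 and -0.62 in shPum2, 0.26 and -2.04 in shControl cultures). Ndufaf4 had 2.76 and 2.10 TPM in shPum2 axons and 0.669 and 25.8 TPM in shControl axons, against 21.6 and 23.0 TPM in shPum2 soma and 23.7 and 21.0 TPM in shControl soma. Ndufaf3, its partner in assembling the Q module, had 43.6 and 14.002 TPM in shPum2 axons and 34.5 and 15.9 TPM in shControl axons, against 31.4 and 37.8 TPM in shPum2 soma and 33.5 and 38.9 TPM in shControl soma. Ndufaf6 had 32.98 and 7.24 TPM in shPum2 axons and 14.9 and 37.1 TPM in shControl axons, against 18.2 and 24.0 TPM in shPum2 soma and 21.8 and 22.2 TPM in shControl soma. For these 3 genes the axonal libraries lay on both sides of the somatic range in TPM. In edgeR they did not pass, with log2 changes in shPum2 and shControl cultures of -0.50 and 1.91 for Ndufaf4. Those of Ndufaf3 were 2.25 and 2.27 (adjusted p = 0.0676 and 0.0597). Those of Ndufaf6 were 2.36 and 2.96 (adjusted p = 0.101 and 0.0518). Assembly factors with other names gave 1 of 9 called higher in each hairpin, Tmem126b (log2 3.93 and 3.43), a membrane protein of the same assembly complex as Ndufaf1.

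The subunits of complexes II to V, which complete the respiratory chain and make ATP, were also higher in axons. Of 39 measured, 34 were called higher in shPum2 and 32 in shControl axons and 0 lower in either, with medians of 4.18 and 3.95, and Cox7a2, Uqcr10 and Cox6a1 were among the 4 with the smallest p in both. The 11 regulators of mitochondrial biogenesis gave 0 higher in either hairpin, with 2 lower in shPum2 and 1 lower in shControl axons. Over all genes tested, 8.45% and 9.41% were higher and 16.2% and 18.5% lower, so these small counts do not set the regulators apart. Ppargc1a, a coactivator of respiratory genes, was lower in both, at 0 TPM in all 4 axonal libraries, against 2.19 to 3.26 TPM in soma. Nrf1, the factor whose motif was searched above, was called lower in shPum2 cultures, with 0 TPM in both of these libraries and 0.0699 and 1.08 TPM in shControl axons, against 9.999 to 11.7 TPM in soma.

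The size of the axonal excess went with transcript length. Of the 25 members with transcripts under 1000 bases, 24 were called higher in each hairpin, against 39.7% and 40.5% of the 1199 genes of that length tested. Between 1000 and 2000 bases 4 of 11 were called higher, against 9.44% and 10.4% of 4186 genes. Over 2000 bases 1 of 5 was, Ndufab1 with 2569 bases, against 2.46% and 3.47% of 6952 genes. The exception among the short members was Ndufa4l2, with 943 bases and 12 to 328 axonal counts. Across the 41 genes the log2 change and log2 length had a Pearson r of -0.78 in shPum2 and -0.83 in shControl cultures, against -0.30 and -0.29 over all genes tested. These genes share libraries and depth and are no independent replicates. The core subunits were longer than the accessory ones, with median transcript lengths of 1056 and 592 bases, and how far length accounts for the difference between the classes was not tested. Ndufs7 with 750 bases and Ndufs8 with 773 bases are short core subunits. The call for Ndufs8 held under all 5 scalings in shPum2 cultures, but in shControl cultures it was lost on log2(TPM + 1) (log2 0.53, limma adjusted p = 0.129). Ndufs7 lost its call in both hairpins with total counts and on log2(TPM + 1).

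**Figure D3:**
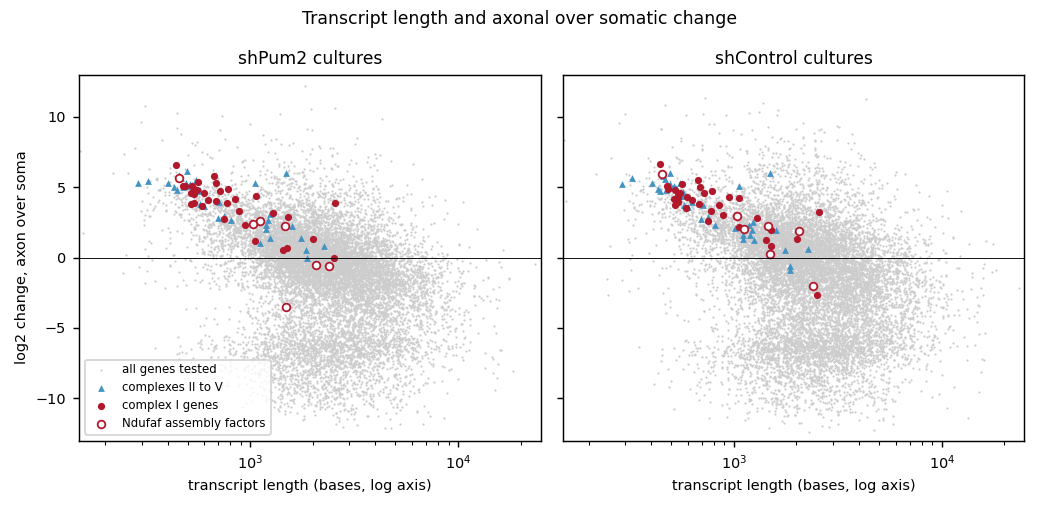
Log2 change of axonal over somatic counts against transcript length (log axis, bases) in shPum2 cultures, left, and shControl cultures, right, for all 12337 genes tested (grey), complexes II to V (blue triangles), complex I genes (red, 1 member not marked) and Ndufaf assembly factors (open circles). The short complex I transcripts lie between 2.29 and 6.65 on the log2 scale, within the range of all genes of that length, and most longer ones lie lower.

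Ndufv3, an accessory subunit of the NADH-oxidising tip, showed the same order within 1 gene. It is one of the 2 members with more than 1 matched transcript, and this comparison was added after its values had been seen. Its 486-base transcript had 1866 and 1830 TPM in shPum2 axons and 2003 and 1522 TPM in shControl axons, against 539 and 618 TPM in shPum2 soma and 579 and 602 TPM in shControl soma. Its 1536-base transcript had 9.50 and 1.02 TPM in shPum2 axons and 4.53 and 1.48 TPM in shControl axons, against 70.6 and 74.5 TPM in shPum2 soma and 75.8 and 72.1 TPM in shControl soma. The shorter transcript was high and the longer one low in every axonal library. The longer transcript made up 0.221% ± 0.203 (SD, n = 4) of the gene's TPM in axons, against 11.2% ± 0.490 (SD, n = 4) in soma, with no overlap. Each n pools the libraries of both hairpins. A two-sided exact permutation test gave p = 0.0286, the smallest possible with 4 against 4. After adjustment over the 2 genes tested it was 0.0571, which is above 0.05. Because the separation had been seen before the test, this p was fixed in advance and adds no support. In an edgeR fit of 12959 transcripts the shorter one was higher (log2 4.37 and 4.33, adjusted p = 0.00614 and 0.00565), and the longer one did not pass (log2 -1.47 and -1.84, adjusted p = 0.384 and 0.248). The split of reads between transcripts was estimated by the authors' software. The other such gene, Ndufaf3, has transcripts of 1465 and 1447 bases, and its share of the longer one did not pass the same test (exact permutation p = 0.0857).

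**Figure D4:**
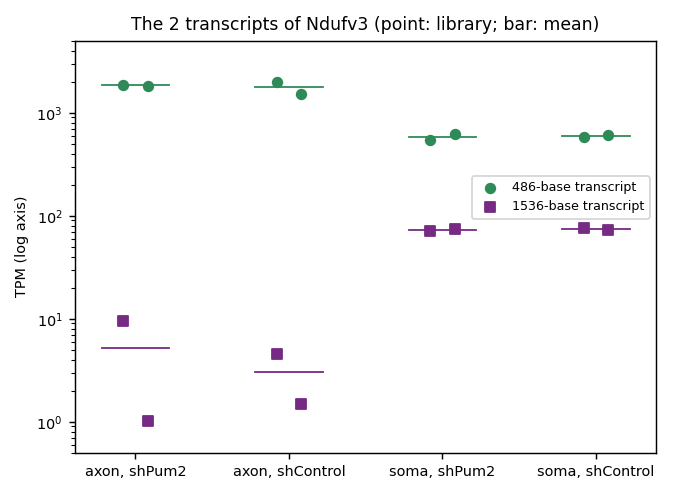
TPM (log axis) of the 486-base and the 1536-base transcript of Ndufv3 in each library, with bars at the mean of each group. The longer transcript lies between 1.02 and 9.50 TPM in axons and between 70.6 and 75.8 TPM in soma, while the shorter one is higher in axons.

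The subunits were more unequal in axons than in soma. Over the 31 subunits with a place in the complex, the SD of log2(TPM + 1) was 1.88 and 2.20 in shPum2 axons and 2.21 and 2.32 in shControl axons, against 0.816 and 0.811 in shPum2 soma and 0.789 and 0.811 in shControl soma. This was no trait of complex I alone. For the subunits of complexes II to V the same SD was 2.24 to 2.58 in axons, against 1.07 to 1.09 in soma. In soma the 31 ranged from 50.1 to 692 TPM, with Ndufab1 lowest and Ndufv3 highest in each library. In axons they ranged from 0.217 to 4583 TPM. The order within axons was nevertheless alike between libraries. Between pairs of axonal libraries the members' log2(TPM + 1) had a Pearson r of 0.93 to 0.98, against 0.78 to 0.86 over all genes tested. Between pairs of somatic libraries it was 0.991 to 0.998 for the members, against 0.976 to 0.997 over all genes tested. Axonal libraries held 9542 to 10730 genes with a count, fewer than the 12337 tested, and the part of level in these differences was not tested.

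In axons, knock-down of Pum2 changed no complex I gene past the threshold. Of the 40 genes tested 0 were called, where 0% of the 8517 genes tested were called in either direction and 3.02% had an unadjusted p below 0.05. None of the 40 had, and DESeq2 and limma voom called 0 members too. There were 24 positive and 16 negative log2 changes of shPum2 over shControl, with a median of 0.06, against -0.05 over all genes tested. The sign of this median rested on 1 library, since it was -0.54 without replicate 2 of shPum2 axons and 0.47 without replicate 1. Standard errors ran from 0.58 to 2.86, and changes of the order of these errors were not detectable with 2 libraries a group. The positive changes with the smallest p were those of Ndufs1 (2.54, SE 1.84), Ndufs4 (0.80), Ndufab1 (0.59), Ndufs8 (0.40) and Ndufa6 (0.37). The negative ones were those of Ndufaf4 (-2.48, SE 2.04), Ndufs3 (-1.04), Ndufa4l2 (-2.33), Ndufa10l1 (-0.72) and Ndufaf6 (-0.68). Ndufs1 had 858 and 412 counts in shPum2 axons, against 161 and 9 in shControl axons, so its groups did not overlap. Ndufaf4 had 76 and 95 counts in shPum2 axons, against 21 and 862 in shControl axons, so a single library set its sign. By TPM, 7 of 41 members lay higher in both shPum2 libraries than in both shControl libraries and 2 lay lower, against 13.7% and 10.3% of all genes.

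In soma, where the libraries were close to each other, again 0 of 41 genes were called and 0 had an unadjusted p below 0.05, where 0% of the 12346 genes tested were called higher, 0.0081% (Pum2 alone) lower, and 0.599% had an unadjusted p below 0.05. The log2 changes ran from -0.24 (Ndufa4l2, SE 0.55) to 0.07 (Ndufaf8, SE 0.16), with 12 positive, 29 negative and a median of -0.03, against 0.01 over all genes. The median was -0.11 without replicate 2 of shPum2 soma and 0.05 without replicate 1, and DESeq2 and limma voom called 0 members. The median standard error was 0.10. Ndufa7 had the smallest p (0.195 in edgeR), with 319 ± 8.74 TPM in shPum2 and 344 ± 8.85 TPM in shControl soma (SD over 2 libraries) and a log2 change of -0.13. It was followed among negative changes by Ndufa12 (-0.11), Ndufv2 (-0.07), Ndufa10 (-0.10) and Ndufs8 (-0.10). The positive changes with the smallest p were those of Ndufa11 (0.07), Ndufs7 (0.05), Ndufa5 (0.07), Ndufb6 (0.04) and Ndufaf8 (0.07). By TPM, 3 of 41 members lay higher in both shPum2 libraries and 7 lower, against 11.1% and 13.6% of all genes.

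**Figure D5:**
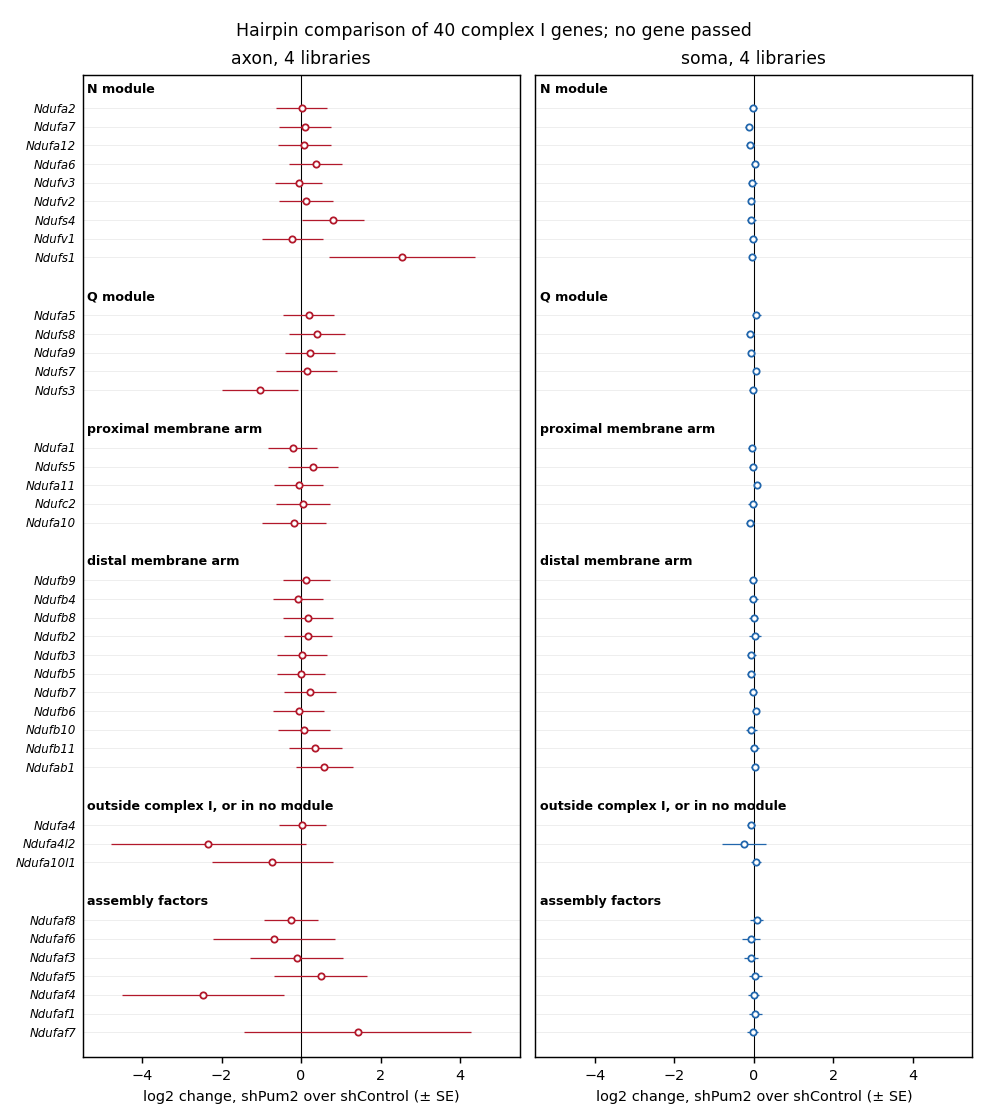
Log2 change of shPum2 over shControl with its standard error (edgeR, 4 libraries per panel) for each of 40 genes in axons, left, and soma, right, on the same scale. No gene passed in either panel. Somatic points lie between -0.24 and 0.07, and axonal ones between -2.48 and 2.54 with far wider errors; Ndufaf1 was not tested in axons.

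Subunits of complexes II to V also gave 0 calls in either compartment, with medians of 0.04 in axons and -0.03 in soma. The authors' deposited tables, which cover all 43 genes, held none with an adjusted or an unadjusted p below 0.05, while they held 357 such genes by adjusted p in axons and 2 in soma. Ndufa8 is an accessory subunit of the intermembrane space and Ndufs6 a zinc-binding subunit of the N module. Their deposited axonal log2 changes were 0.31 (SE 1.21) and 0.08 (SE 1.22), far smaller than these errors. The deposited somatic ones were 0.01 (SE 0.11) and -0.03 (SE 0.11). For Pum2 in soma the deposited change was -1.71, against -2.13 in edgeR, so deposited and edgeR changes are not on the same scale.

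No member passed a test of whether its axonal over somatic change differed between the hairpins. The interaction in the 8-library fit gave 0 calls among 41 members and 0% of 12337 genes in either direction, with 0 members and 7.81% of all genes at an unadjusted p below 0.05. The members' median was 0.17, against -0.01 over all genes, and it was -0.63 without replicate 2 of shPum2 axons and 0.74 without replicate 1. DESeq2 and limma voom called 0 members. Positive terms with the smallest p were those of Ndufs1 (2.59, SE 1.69), Ndufs4 (0.94), Ndufab1 (0.65), Ndufs8 (0.58) and Ndufa9 (0.36), and negative ones those of Ndufaf4 (-2.41), Ndufaf1 (-3.75), Ndufs3 (-0.98), Ndufa4l2 (-2.02) and Ndufa10l1 (-0.70). Standard errors ran from 0.49 to 3.07. Without replicate 1 of shControl axons 1 member passed, Ndufs1 (log2 6.05, edgeR adjusted p = 0.0389), as did 720 genes in all; the remaining shControl axonal library held 9 counts of it. The axonal over somatic comparisons of both hairpins came from 1 fit with a shared estimate of the spread, and the interaction shares libraries with the hairpin comparisons, so the reappearance of Ndufs1 and Ndufaf4 in both is no second observation.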

How the data were processed

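RNA of 8 libraries (2 per group) was analysed. Estimated counts and TPM per RefSeq transcript were deposited by the authors, made with kallisto on Rnor_6.0 per the submitters' processing notes; versions and settings are not given in the sources used here. The authors' deposited comparison tables hold the columns of a DESeq2 result per the file headers: per gene a p-value, a Wald score, a log2 fold change and the mean signal after normalisation; the file headers give no direction, which was read from Pum2, and the mean signal and score were not printed.

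Transcripts were matched to symbols by RefSeq accession (17367 of 18321, 94.8%), the other 954 kept their own identifier, and counts were summed per gene and rounded. Genes passing edgeR's filterByExpr were fitted by quasi-likelihood with TMM factors (edgeR 4.0.16, R 4.3.3), with all 8 libraries for compartment and interaction and 4 for each hairpin comparison; calls used a Benjamini-Hochberg adjusted p below 0.05 over all genes, and standard errors are the log2 change over the root of its F. TPM were used for levels and, with a pseudocount of 1, in limma 3.58.1. The axonal comparisons left biological coefficients of variation of 91.1% (8 libraries) and 125% (axons), against 23.5% in soma. The 8-library fit gave both compartments 1 spread per gene. Its standard errors and adjusted p therefore describe the spread of neither compartment alone, which limits the compartment and interaction calls. Exact permutation tests used scipy 1.17.1. The procedure was tested on simulated data, which in the 8-library comparisons had 1 spread per gene for both compartments, unlike the real libraries. Alternatives were DESeq2 1.42.0, limma voom, other size factors, no filter, effective length offsets, fits of other sets of libraries, a replicate block and leaving out each library; the TPM fit and the transcript comparison were chosen after seeing the data.

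The members, gene lists and tests were chosen with earlier results of these data known. Named in full were, for compartment, the 10 largest and 5 smallest changes in shControl cultures, members that did not pass, core subunits, Ndufaf genes and Ndufa4, and for hairpin and interaction the 5 smallest p in each direction; other lists name up to 4 genes with the smallest p. The values of 1 member, which counts and sums include, are not reported here. Whether the replicate numbers pair libraries was checked by the correlation of replicate differences between groups over all genes (soma 0.705, axon 0.087), which with 2 pairs establishes no pairing.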

Additional observations from a re-analysis of the deposited data

How the results depend on the processing

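The members called higher in axons numbered 22 to 36 over the alternative fits that kept all libraries of the comparison, against 29 in each hairpin. Scaling by total counts moved their median log2 change to 2.23 in shPum2 and 2.18 in shControl cultures, and DESeq2 size factors in edgeR and DESeq2 itself both gave 4.05 in shControl cultures. On log2(TPM + 1) with limma, the medians were 1.13 in shPum2 and 0.99 in shControl cultures, 7 members were lower in each, and 8247 and 8254 genes were called, against 3046 and 3445. There the change was negative for Ndufa10 (-1.43 in shPum2 and -1.41 in shControl cultures), Ndufa10l1 (-2.13 and -1.48), Ndufs7 (-0.13 and -0.19) and Ndufv1 (-2.00019 and -1.93), and in shControl cultures also for Ndufaf1 (-2.70) and Ndufs4 (-0.79); a shift common to all genes is part of this scale. Without a filter 2322 and 2620 genes were called, and with the libraries of 1 hairpin 2185 and 3953.

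With a replicate block, whose pairing the data do not establish, 31 and 29 members were higher and 1 was lower in each hairpin, Ndufaf7 (log2 -2.89 and -4.18), and the hairpin comparisons gave 1 gene in soma and 0 in axons. Leaving out 1 library at a time gave 0 to 33 members higher and 0 lower in shPum2 cultures, with medians of 3.02 to 4.64 and 0 to 4906 genes. In shControl cultures it gave 0 to 35 higher and 0 to 1 lower, with medians of 3.68 to 3.83 and 0 to 5522 genes. For shPum2 over shControl it gave medians of -0.114 to 0.048 and 0 to 1 genes in soma, and -0.54 to 0.47 and 0 to 4 genes in axons. For the interaction it gave medians of -0.63 to 0.74, 0 to 1 members higher and 0 to 720 genes.

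Genes called for shPum2 over shControl in soma numbered 2 with DESeq2, 0 with limma voom and 0 with all 8 libraries in 1 fit, against 1. In axons they numbered 6 without a filter and 159 with DESeq2, against 0, and for the interaction 609 with DESeq2, against 0; 0 of these calls were members. The causes of these differences were not tested. Of 2859 single-gene values under an alternative, 2401 stayed the same, 229 moved, 161 lost the call, 58 gained one and 10 reversed. The limits are 2 libraries a group, 9542 to 10730 genes with a count in axons, and a kit that differed with the compartment.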
